A study of Saccharomyces cerevisiae with 40 samples.

Results

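ARO9, ARO10 and ARO80 are the genes of aromatic amino acid breakdown in budding yeast, and they make up 3 of the 5449 genes that could be named on the array. They were taken by their gene symbols in the platform annotation, which gives each of them 1 probe set. ARO9 (YHR137W) lies on chromosome VIII, and ARO10 (YDR380W) and ARO80 (YDR421W) lie on chromosome IV. The genes were picked because ARO10 and ARO9 had stood far lower in abrupt heat than after evolution at 30 °C in an earlier reading of these arrays. The rule that names them also names the heat, 30 °C-evolved, minimal-medium and haploid groups. Their values in those groups are therefore given as descriptions without a test. A test is given for the members in 1 comparison alone, the H2 line kept at 30 °C after heat against the ancestor. That line has both heat and 30 °C in its history, so this test is not free of the choice of genes.

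Yeast breaks down tryptophan, phenylalanine and tyrosine by the Ehrlich pathway, in which a transaminase removes the amino group, a decarboxylase turns the resulting keto acid into an aldehyde, and the aldehyde is reduced to a fusel alcohol or oxidized to a fusel acid. ARO9 encodes the inducible aromatic aminotransferase and ARO10 the main decarboxylase of the keto acids. ARO80 encodes a zinc cluster activator that binds the promoters of ARO9 and ARO10 and switches them on when aromatic amino acids are present. The GATA activators of nitrogen catabolite repression, Gln3 and Gat1, also act at these promoters. In laboratory cultures a shift to heat is known to induce ARO9 and ARO10 through Aro80.

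RNA was measured on 40 one-colour arrays in 16 groups. All cells had first been grown for 18 generations free of stress and were taken at mid log phase, so the values were not read during the applied stress. The diploid ancestor had 2 arrays. Its descendants had 4 arrays after abrupt 39 °C for 450 generations, 4 after the same number with the temperature brought up step by step from 30 °C, and 2 after evolution at 30 °C throughout. The trisomic and the monosomic sample each came from 1 unevolved clone, with an extra or a missing chromosome III, and had 1 array each. H2, a line with 450 generations of abrupt heat behind it, was carried on in separate branches: 4 arrays followed 600 generations at 30 °C, and 2 followed 1000 generations of 39 °C combined with minimal medium. The trisomic strain went through 1000 generations of that heat and medium and had 2 arrays, and the ancestor had 1 array labelled minimal medium. The labels do not give the medium of the last 18 generations of these evolved lines. They are named below for the medium they evolved on, and medium at harvest and evolution cannot be told apart in their differences from that ancestor array. The haploid ancestor had 2 arrays. Its descent at pH 8.6 had 1 array at 150 generations, 4 at 750, and 1 each of a euploid and a disomic spore. The last 8 arrays were spores of a line named evo39, whose labels do not state its history. RNA of evolved samples came from populations, per the design text. That text speaks of independent repetitions without saying which arrays they are, so the spread within a group may be partly technical.

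Values are log2 expression as deposited, after RMA (background correction, quantile normalization and a summary of the probes). Arrays that were normalized together share values identical to the last digit, and this divided the 40 arrays into 9 sets. Levels were compared within a set, each evolved array against the ancestor array of its own set where it has one. Sets 2, 3, 4 and 8 hold no ancestor array. Every member was above background on all 40 arrays, by at least 1.95 for ARO9, 1.58 for ARO10 and 2.6 for ARO80 in log2. Probe sets differ in their response, so a level of one gene is not set against that of another.

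The ploidy taken from the labels, with spores taken as haploid, was checked with 6 haploid-specific genes of pheromone signalling. Values quantile-normalized again over all arrays were used. Their median ran from 5.71 to 6.36 on the 23 diploid arrays and from 8.55 to 10.34 on 14 of the 17 haploid or spore arrays. The libraries labelled evo39 spores 1, 5 and 7 lay at 5.72 to 5.93, within the diploid range. Their labels say spore and state no ploidy. They were also among the spores with raised chromosome III genes, given below, and a relation between these readings was not tested. Among the other haploid or spore arrays, 9 had the a-specific genes high and 5 the alpha-specific genes. Haploid ancestor 1 was on the alpha side and haploid ancestor 2 on the a side. All pH arrays lay on the a side. Genes of chromosome III stood at a median of 0.49 over the ancestor in the trisomic clone and in abrupt-heat replicate 2, −0.51 in the monosomic clone and 0.74 to 0.78 in evo39 spores 1, 2, 5 and 7. Both arrays of the trisomic strain after heat on minimal medium stood at −0.0506 and −0.0389 against their ancestor, so chromosome III genes did not show an extra copy there; these arrays are called the trisomic descent for the label of the strain they started from.

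**Figure D1:**
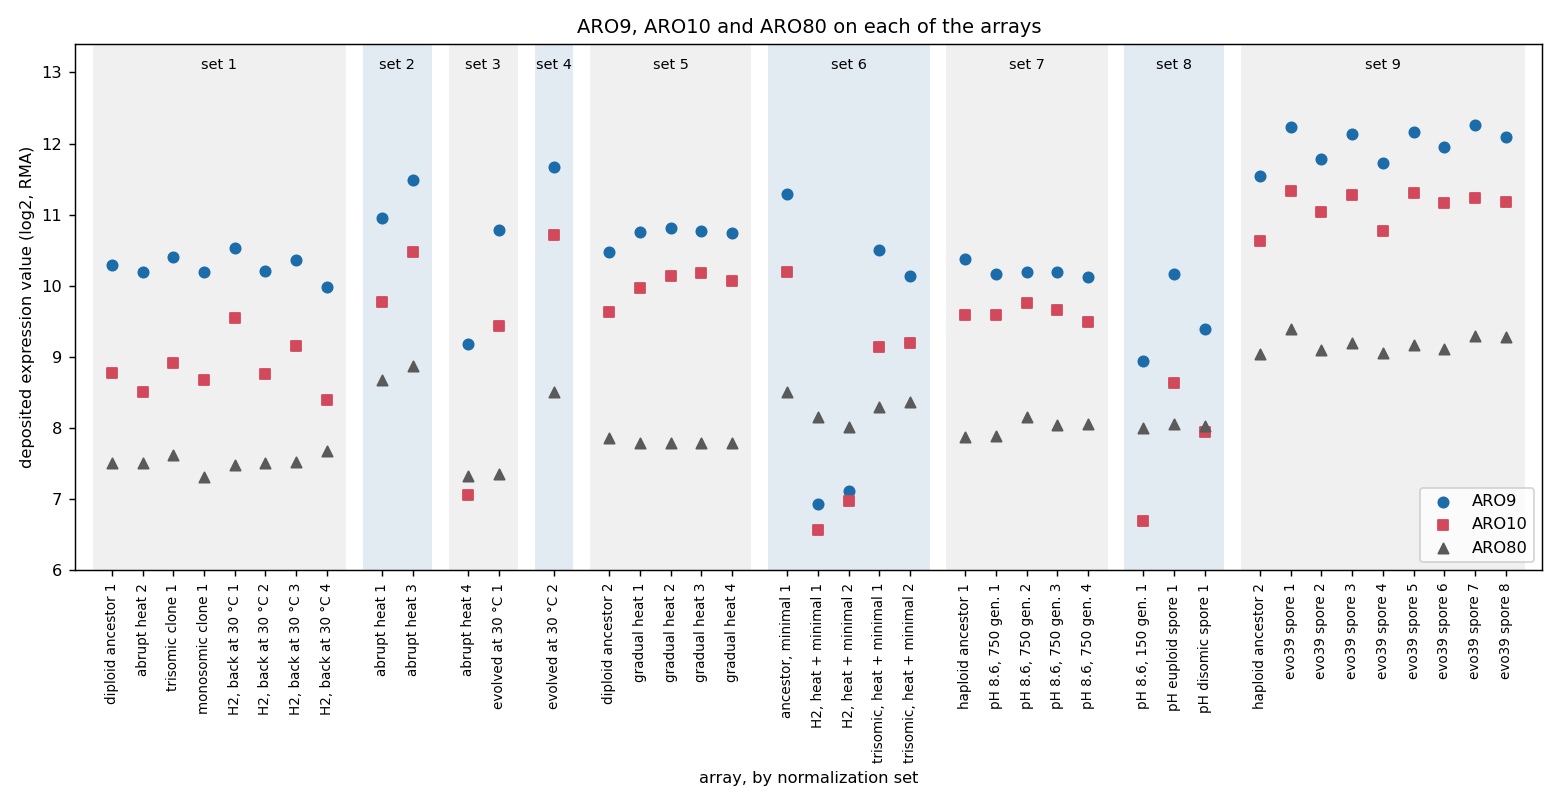
Deposited log2 expression values (vertical axis) of ARO9 (circles), ARO10 (squares) and ARO80 (triangles) on all 40 arrays, ordered by normalization set (shaded blocks); values are comparable within a block and within a gene. ARO9 and ARO10 lie low together on both H2 arrays of set 6, on abrupt-heat array 4 of set 3 and on the array after 150 generations at pH 8.6 in set 8, while ARO80 keeps a narrow range.

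The aminotransferase gene ARO9 and the decarboxylase gene ARO10 covered a wide part of the expression range, and their activator gene ARO80 a narrow one. Ranked among all named genes of an array, ARO9 ran from the 9.38th to the 86.7th percentile over the 40 arrays and ARO10 from the 7.29th to the 73.1th. ARO80 ran from the 14.3th to the 26.6th.

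To order the groups across sets, all arrays were quantile-normalized again together. This did not make the sets alike. The diploid ancestor still read 10.57 in set 1 and 10.88 in set 5 for ARO9, and 9.17 and 10.03 for ARO10. Group and set therefore cannot be told apart in the order that follows. On that scale ARO9 was highest in the evo39 spores, at 11.56 ± 0.22 (SD, n = 8), then 11.23 in the ancestor on minimal medium, 11.18 ± 0.03 (n = 4) in gradual heat and 11.10 ± 0.07 (n = 2) after evolution at 30 °C. The haploid ancestor followed at 10.95 ± 0.10 (n = 2). The diploid ancestor at 10.72 ± 0.22 (n = 2), the arrays after 750 generations at pH 8.6 at 10.68 ± 0.04 (n = 4), H2 back at 30 °C at 10.54 ± 0.21 (n = 4), abrupt heat at 10.39 ± 0.59 (n = 4) and the trisomic descent on minimal medium at 10.29 ± 0.26 (n = 2) are neighbours that did not differ beyond their spread, and the trisomic clone at 10.66 and the monosomic clone at 10.48 lay among them. The euploid pH spore at 9.93, the disomic pH spore at 9.16 and the array after 150 generations at 8.70 were lower, and the H2 line on minimal medium was last at 7.00 ± 0.14 (n = 2).

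ARO10 kept much of this order, from 10.62 ± 0.20 (SD, n = 8) in the evo39 spores and 10.47 ± 0.10 (n = 4) in gradual heat down to 6.73 ± 0.32 (n = 2) in the H2 line on minimal medium and 6.35 in the array after 150 generations at pH 8.6. Abrupt heat had the widest spread, 8.95 ± 1.01 (n = 4), and overlapped most groups in the middle of the order. ARO80 lay between 7.72 and 8.54 in group means, with the ancestor on minimal medium highest and the array after 150 generations at pH 8.6 lowest. Neighbours in its order were all closer to each other than the 0.25 SD of the abrupt-heat arrays.

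The lowest ARO9 values came from the H2 line after heat on minimal medium. ARO9 read 6.93 and 7.11 there, against 11.29 in the ancestor array labelled minimal medium. Both H2 arrays lay far below the ancestor and below both arrays of the trisomic descent, which read 10.496 and 10.14. The mean difference of H2 from the ancestor was −4.27 (array SD 0.13, n = 2 against 1), a 19.3-fold lower level and the 6th lowest change of 5335 genes, against a median of 0.03 over all genes. The trisomic descent stood at −0.97 ± 0.26 (SD, n = 2 against 1), 1.96-fold lower.

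ARO10 read 6.57 and 6.97 in the H2 line on minimal medium, 9.14 and 9.20 in the trisomic descent and 10.20 in the ancestor. The ancestor was again highest. The H2 line lay 10.8-fold below the ancestor, a log2 difference of −3.43 ± 0.29 (SD, n = 2 against 1) and the 14th lowest of 5335 genes. The trisomic descent lay 2.04-fold below it, at −1.03 ± 0.04. Set directly against the trisomic descent, the H2 line was 9.82-fold lower for ARO9 and 5.28-fold lower for ARO10.

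ARO80 itself differed far less in these lines. It read 8.15 and 8.01 in the H2 line, 8.30 and 8.37 in the trisomic descent and 8.51 in the ancestor. The differences from the ancestor were −0.42 ± 0.10 and −0.17 ± 0.05 (SD, n = 2 against 1 each), and 22.6% and 29.9% of genes respectively had a lower value. Both evolved lines were compared with the same ancestor array, and any deviation of that array enters all of these differences. The medium of the evolved lines at harvest is not given, so a difference of medium could enter them too and was not tested. Of all 5335 genes tested, limma called 58% in the H2 line (30.6% higher, 27.3% lower). In the trisomic descent it called 33.8% (18.7% higher, 15.1% lower), so the members' low values stood among very many other changes. The spread behind these calls comes from all replicated diploid groups, and the ancestor array labelled minimal medium has no replicate.

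**Figure D2:**
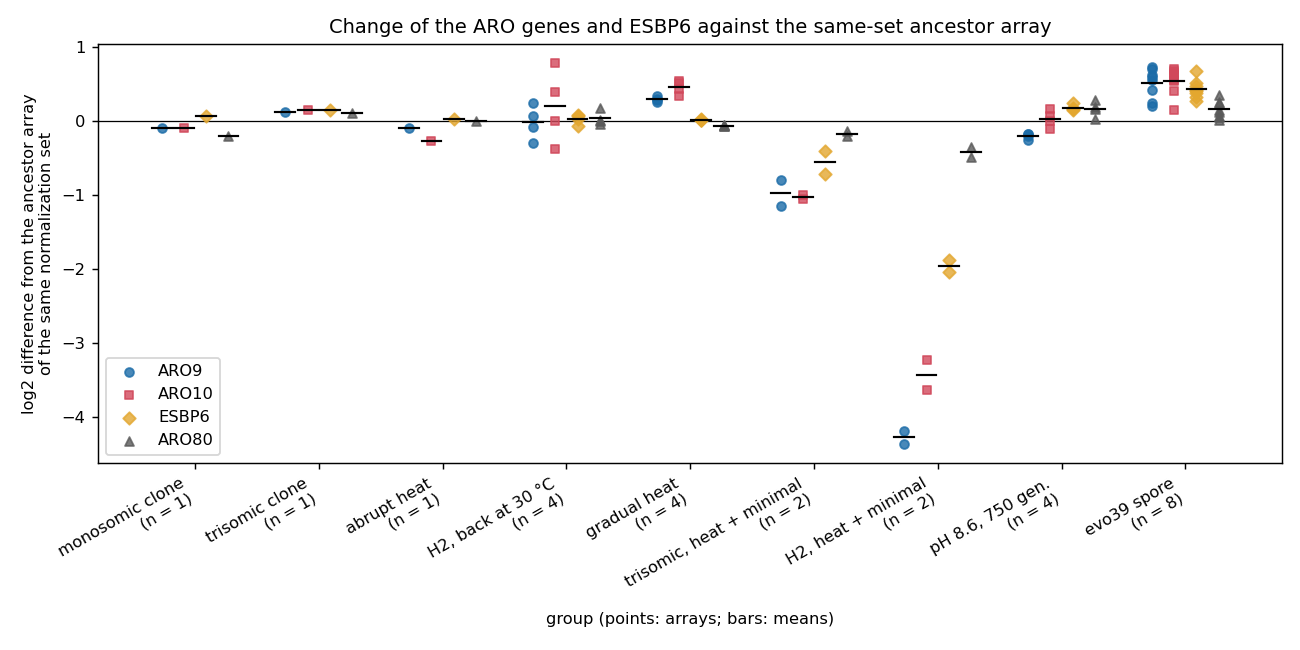
Log2 difference (vertical axis) of each array from the ancestor array of its own normalization set for ARO9, ARO10, ESBP6 and ARO80, by group; points are arrays and black bars are group means. ARO9 and ARO10 lie near −4.27 and −3.43 in the H2 line after heat on minimal medium and near 0.51 and 0.54 in the evo39 spores.

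Of 54 other genes of the pathway and its surroundings, 53 were found by name and 52 were above background in enough arrays to be tested; TRP1 was not found and DAL80 was not above background in enough of them. In the H2 line on minimal medium 34 of the 52 fell and 7 rose by limma (Benjamini-Hochberg adjusted p), 78.8% against 58% of all genes. Their median was −0.78 against 0.03 over all genes. In the trisomic descent 24 fell and 3 rose, 51.9% against 33.8% of all genes, with a median of −0.25 against 0.01. Without the set term 17 were called in the H2 line and 0 in the trisomic descent. The share of all genes called that way is not given here, so these counts have no background.

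ESBP6, which encodes a protein related to monocarboxylate transporters and is a known target of Aro80, fell in both lines. It read 8.84 and 8.67 in the H2 line, 10.31 and 10.004 in the trisomic descent and 10.72 in the ancestor. Its fitted change was −1.96 ± 0.12 in H2 (SE, n = 2 against 1; limma adjusted p = 2.2e-08) and −0.56 ± 0.12 in the trisomic descent (limma adjusted p = 0.00375).

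All 3 other transaminase genes fell in the H2 line, where limma called 27.3% of all genes lower. The constitutive aromatic aminotransferase gene ARO8 changed by −1.198 ± 0.10, and the branched-chain genes BAT1 and BAT2 by −0.999 ± 0.10 and −1.41 ± 0.15 (SE, n = 2 against 1; limma adjusted p = 3.0e-07, 2.2e-06 and 3.5e-06). In the trisomic descent ARO8 alone passed, at −0.41 ± 0.10 (limma adjusted p = 0.00648). The decarboxylase genes split in H2. The pyruvate decarboxylase genes PDC6 and PDC5 rose by 1.498 ± 0.17 and 0.56 ± 0.09, THI3 fell by 0.60 on the log2 scale, and PDC1 stood at 0.01 (limma adjusted p = 0.793). In the trisomic descent PDC6 changed the other way, by −0.53 ± 0.17 (limma adjusted p = 0.0341), THI3 changed by −0.43 ± 0.08 and PDC1 by −0.11 ± 0.03, each past the threshold, and PDC5 stood at 0.06 (limma adjusted p = 0.647).

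Among 13 genes that reduce or oxidize aldehydes, 4 fell and 3 rose in the H2 line, a share of 53.8% called against 58% of all genes, so the list did not stand out from the background by its count. The alcohol dehydrogenase gene ADH5 had the lowest value, −3.14 ± 0.10 (limma adjusted p = 1.4e-10), and the mitochondrial aldehyde dehydrogenase gene ALD5 changed by −1.37 ± 0.13. The genes ALD3 and ALD6 of cytosolic aldehyde oxidation rose by 1.47 ± 0.23 and 1.23 ± 0.11. Of the genes of ester synthesis and acid export, the alcohol acetyltransferase gene ATF2 rose by 1.67 ± 0.20 and the weak-acid pump gene PDR12 changed by −1.62 ± 0.16. The trisomic descent had ATF2 at 0.95 ± 0.20, ADH5 at −0.55 ± 0.10 and PDR12 at −0.77 ± 0.16, each past the threshold.

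Amino acid uptake and sensing genes fell without exception among those called, 10 of 12 in the H2 line and 9 of 12 in the trisomic descent. Of all genes, limma called 27.3% lower in the H2 line and 15.1% lower in the trisomic descent. The permease gene BAP2 changed by −1.46 ± 0.08 in H2, AGP1 by −1.23 ± 0.19 and PTR3, of the amino acid sensor complex, by −1.14 ± 0.14. In the trisomic descent the general permease gene GAP1 changed by −1.40 ± 0.33, AGP1 by −1.05 ± 0.19 and BAP3 by −0.65 ± 0.18. The GATA activator genes fell in both lines. GLN3 changed by −2.03 ± 0.13 in H2 (limma adjusted p = 4.3e-08) and −0.74 ± 0.13 in the trisomic descent (limma adjusted p = 0.00121), and GAT1 by −1.49 ± 0.18 and −1.01 ± 0.18.

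Aromatic amino acid synthesis was also lower in the H2 line, where 10 of 11 genes fell, against 27.3% of all genes called lower. The tryptophan genes TRP4 and TRP3 changed by −1.86 ± 0.10 and −1.44 ± 0.10 and ARO3, of the first step of the shared route, by −1.66 ± 0.12. ARO7, the chorismate mutase gene, rose by 1.21 ± 0.12 in H2 and by 0.82 ± 0.12 in the trisomic descent. There 5 of 11 fell, among them TRP4 at −0.47 ± 0.10, against 15.1% of all genes called lower.

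**Figure D3:**
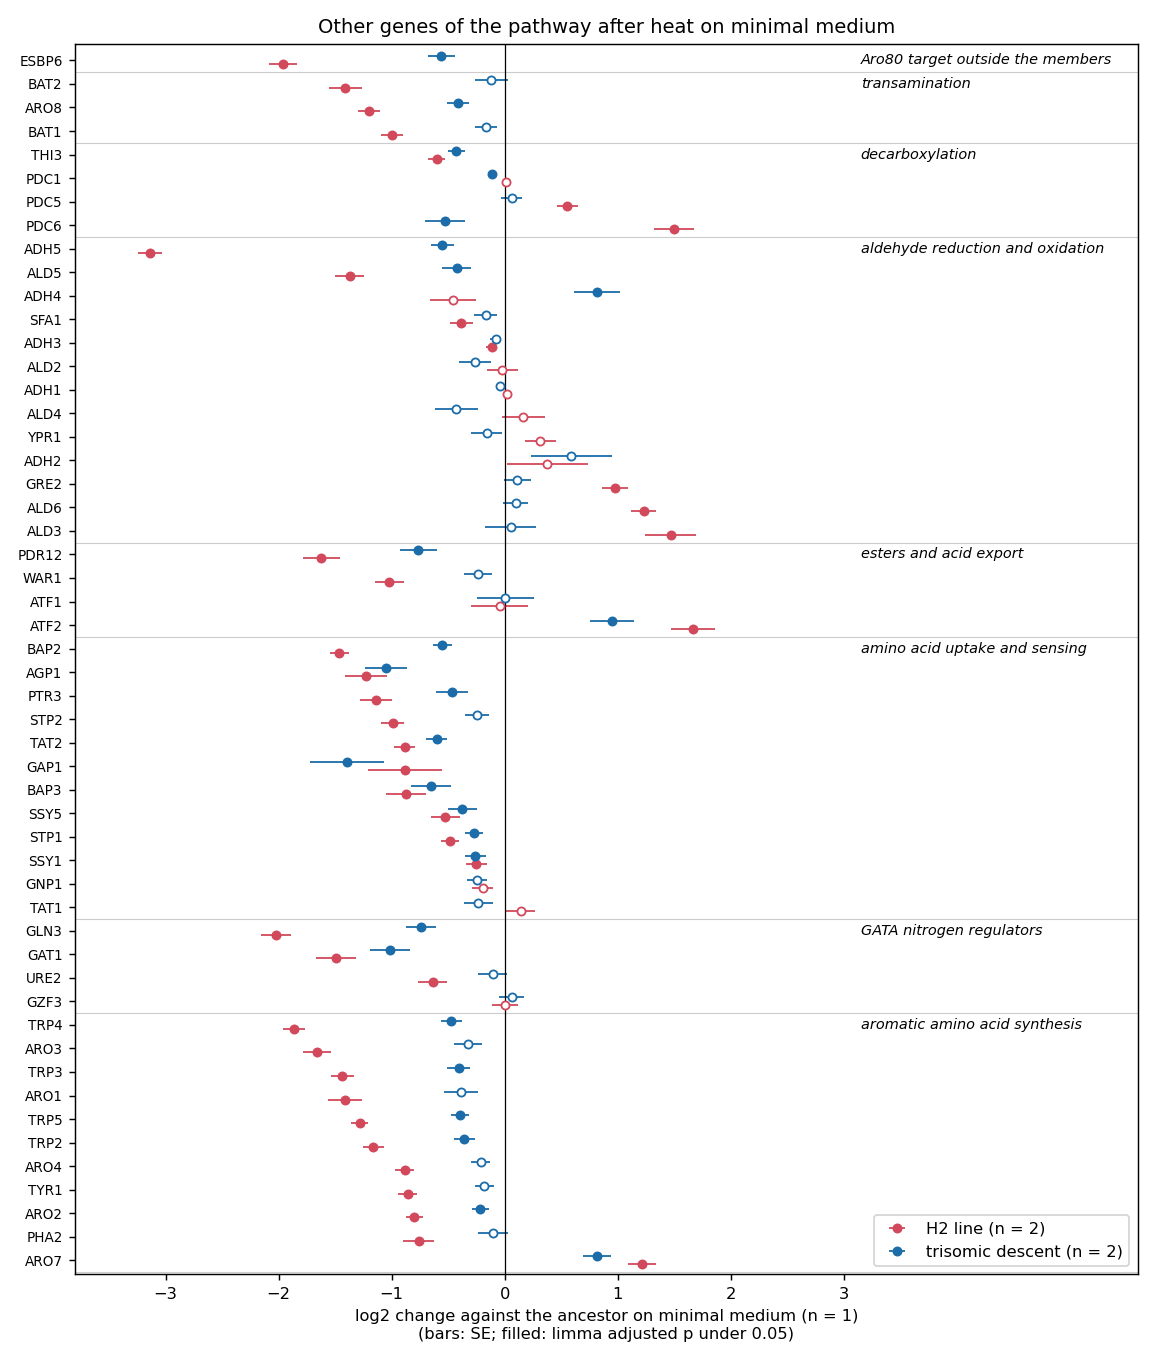
Fitted log2 change (horizontal axis, bars are SE) of the 52 other pathway genes after heat on minimal medium against the ancestor array labelled minimal medium, for the H2 line (red) and the trisomic descent (blue), grouped by role; filled points passed the limma threshold. In the H2 line 34 genes lie to the left and passed and 7 lie to the right and passed, with ADH5 leftmost at −3.14.

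Abrupt heat and evolution at 30 °C share a set in 1 array each, and this pair carries the values by which the genes were picked. Abrupt-heat replicate 4 read 9.18 for ARO9, 7.05 for ARO10 and 7.32 for ARO80. The 30 °C replicate 1 read 10.78, 9.44 and 7.35. ARO9 was thus 3.02-fold and ARO10 5.23-fold lower in the heat array, the 6th and 2nd lowest differences of 5335 genes, while ARO80 differed by −0.03. There is no replicate check within the set.

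The other abrupt-heat arrays did not share this low level. Within set 1, abrupt-heat replicate 2 read 10.19 for ARO9, 8.50 for ARO10 and 7.505 for ARO80, against 10.29, 8.77 and 7.51 in ancestor 1. In set 2, replicates 1 and 3 read 10.95 and 11.49 for ARO9 and 9.78 and 10.47 for ARO10. After the repeated normalization the 4 abrupt-heat arrays ran from 7.59 to 9.99 for ARO10 and from 9.61 to 11.03 for ARO9. The 30 °C arrays, at 9.82 and 10.17 for ARO10 and 11.05 and 11.15 for ARO9, stood 1 inside and 1 above the abrupt-heat range for the decarboxylase gene and both just above it for the aminotransferase gene. Most of these arrays lie in different sets, so condition and set cannot be told apart in this ordering.

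With the set term, the fitted difference between abrupt heat and 30 °C comes from the pair of arrays in set 3 alone (n = 1 against 1), with a spread borrowed from the replicated groups, so it compares those arrays and not the conditions. Of the 52 other pathway genes 3 passed the limma threshold, all higher in the heat array, with 1.52% of all genes called (1.18% higher, 0.337% lower). They were the branched-chain aminotransferase gene BAT2 with a log2 difference of 0.97, ADH5 with 0.91 and BAP2 with 0.45. None of the 52 was called without the set term or with the replicate number as a block. ESBP6 stood at −0.38 and did not pass. The comparison with the ancestor likewise rests on 1 array against 1, abrupt-heat replicate 2 and ancestor 1. It called 0 of the 52 by limma (3 at an unadjusted p under 0.05), with 0.3% of all genes called (0.262% higher, 0.0375% lower). The permease gene AGP1 was called when the spread was estimated without abrupt-heat replicate 1 or replicate 3.

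Gradual heat stood slightly above its ancestor for both enzyme genes. ARO9 read 10.76, 10.81, 10.77 and 10.74 in the 4 arrays and 10.48 in ancestor 2. ARO10 read 9.97, 10.14, 10.18 and 10.06 against 9.63. All 4 arrays lay above the ancestor array for both, by 0.29 ± 0.03 for ARO9 and 0.45 ± 0.09 for ARO10 (SD, n = 4 against 1), or 1.22-fold and 1.37-fold. ARO10 held the 26th and ARO9 the 105th highest change of 5335 genes. ARO80 stood at −0.06, with all 4 arrays between 7.78 and 7.79 against 7.85. None of the 52 other pathway genes was called by limma (1 at an unadjusted p under 0.05), with 0.075% of all genes called (0.0562% higher, 0.0187% lower). The median gene had an SD of 0.03 over the gradual-heat arrays, against 0.10 over the H2 arrays at 30 °C.

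The H2 line after 600 generations back at 30 °C had ARO9 at 10.53, 10.21, 10.36 and 9.98 in its 4 arrays, against 10.29 in ancestor 1. ARO10 read 9.55, 8.77, 9.15 and 8.39 against 8.77, and ARO80 7.47, 7.505, 7.52 and 7.68 against 7.51. The ancestor lay inside the range of the H2 arrays for all 3 genes. None of the members was called by limma, with 0.075% of all genes called (0.0375% in each direction), and unadjusted p-values were 0.93, 0.563 and 0.733. ARO9 changed by −0.02 ± 0.20 (SE, n = 4 against 1), ARO10 by 0.20 ± 0.33 and ARO80 by 0.03 ± 0.10, each with a limma adjusted p of 1. The 95% intervals of the fold were 0.729 to 1.34 for ARO9, 0.699 to 1.88 for ARO10 and 0.885 to 1.18 for ARO80, so the arrays do not show that the levels were alike. None of the 52 other pathway genes was called by limma either (8 at an unadjusted p under 0.05); the ester gene ATF2 was called without H2 replicate 1.

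ARO10 was among the most variable genes of the replicate H2 arrays. Its SD of 0.50 over 4 arrays exceeded that of 99.3% of genes, where the median gene had 0.10. ARO9, with an SD of 0.23, exceeded 91.4%, and ARO80, with 0.09, exceeded 44.9%. The arrays had the same order for ARO9 and ARO10, from replicate 1 through 3 and 2 to 4, and ARO80 was highest where both were lowest. In the other replicated groups ARO10 exceeded 92.3% of genes in gradual heat, 71.6% after 750 generations at pH 8.6 and 81.4% among the evo39 spores.

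The unevolved aneuploid clones stood close to ancestor 1. The trisomic clone read 10.40 for ARO9, 8.91 for ARO10 and 7.62 for ARO80, and the monosomic clone 10.19, 8.67 and 7.31. The largest of these differences was −0.20 for ARO80 in the monosomic clone. For 1 array against 1 there is no replicate check, and the pooled SD of replicate arrays was 0.19 for ARO9, 0.27 for ARO10 and 0.10 for ARO80.

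Among haploid arrays the evo39 spores stood above their ancestor array for every member. ARO9 had a lowest value of 11.73, a median of 12.11 and a highest of 12.27 over 8 spores, against 11.54. ARO10 ran from 10.77 over a median of 11.21 to 11.33, against 10.63, and ARO80 from 9.05 over 9.18 to 9.39, against 9.04. All 8 spores exceeded the ancestor for each gene. Of all genes, 96.9% had a lower mean change than ARO9, 97.3% than ARO10 and 83.1% than ARO80. The mean differences were 0.51 ± 0.20 for ARO9, 0.54 ± 0.18 for ARO10 and 0.16 ± 0.12 for ARO80 (SD, n = 8 against 1), or 1.42-fold, 1.45-fold and 1.12-fold. ESBP6 stood at 0.43 ± 0.11 in the fit and did not pass (SE, n = 8 against 1; limma adjusted p = 0.216).

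Spores 1, 5 and 7, whose haploid-specific genes lay in the diploid range, had the 3 highest ARO9 values, at 12.23, 12.16 and 12.27. This did not hold for the other members. For ARO10 spore 3 read 11.28, above spore 7 at 11.24, and for ARO80 spore 8 read 9.28, above spore 5 at 9.17. Without spores 1, 5 and 7 the mean differences were 0.40 for ARO9, 0.46 for ARO10 and 0.11 for ARO80. The remaining spores comprised 1 of the a side and 4 of the alpha side, against an ancestor of the a side, and the part of mating type in the differences was not tested. None of the 52 pathway genes was called in the spores by limma (7 at an unadjusted p under 0.05), and 0% of all genes were called (674 at an unadjusted p under 0.05). The spores differed in ploidy and mating-type markers and in chromosome III genes, and these differences enter the spread of the fit. The lack of calls therefore does not show that the genes were unchanged. Without the set term 40 of the 52 were called, but that model pools ancestor arrays of separately normalized sets. The share of all genes called under it is not given here, so the count is not a result about the pathway.

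After 750 generations at pH 8.6 ARO9 read 10.17, 10.20, 10.20 and 10.13, against 10.38 in haploid ancestor 1. All 4 arrays lay below it, by −0.21 ± 0.04 (SD, n = 4 against 1). ARO10 read 9.59, 9.76, 9.66 and 9.49 against 9.59 and lay on both sides of the ancestor, at 0.03 ± 0.11. ARO80 read 7.89, 8.16, 8.04 and 8.06 against 7.87 and lay above it in all 4, at 0.16 ± 0.11. Of all genes, 10.6% had a lower mean change than ARO9 and 82.1% a lower one than ARO80. The ancestor array of this set was of the alpha side and the pH arrays of the a side, so mating type and evolution at high pH cannot be told apart here. None of the 52 other genes was called by limma (3 at an unadjusted p under 0.05), with 0.149% of all genes called, all of them higher. The spread of this fit also holds the differences among the evo39 spores. Without the set term 19 of the 52 were called, again with ancestor arrays of separate sets pooled and no share of all genes given.

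The 3 pH arrays of set 8 have no ancestor in their set and differ widely among themselves. ARO9 read 8.94 after 150 generations, 9.40 in the disomic spore and 10.17 in the euploid spore, and ARO10 read 6.69, 7.94 and 8.64 in the same order. The array after 150 generations was lowest for both, 2.35-fold below the euploid spore for ARO9 and 3.85-fold for ARO10, the 31st and 7th lowest differences of 5352 genes. The disomic spore was 1.71-fold and 1.62-fold below the euploid one. ARO80 read 8.00, 8.03 and 8.06, and ESBP6 8.64, 8.67 and 8.63, so neither varied with the enzyme genes in this set.

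**Figure D4:**
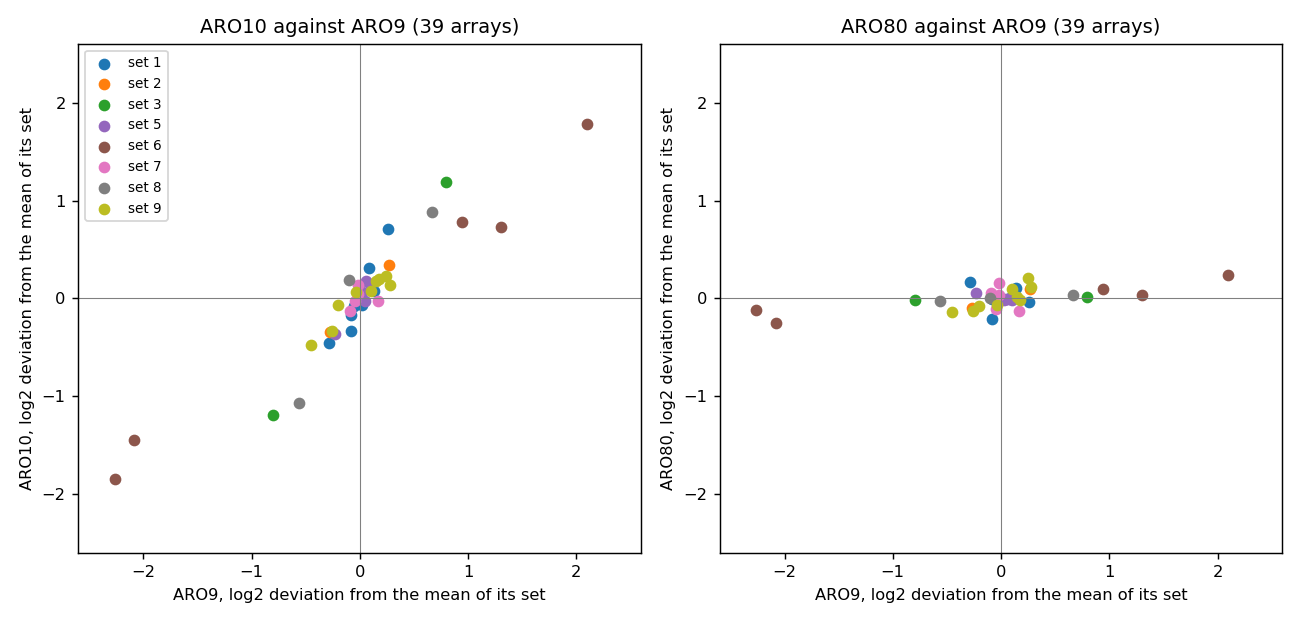
Deviation of ARO10 (left) and ARO80 (right) from the mean of the array's normalization set, against that of ARO9, in log2; each point is 1 of 39 arrays, coloured by set. ARO10 follows ARO9 over the whole range (Pearson r = 0.94), while ARO80 stays within a narrow band (r = 0.58). The arrays include the pair by which the genes were picked.

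ARO9 and ARO10 varied together. As deviations from the mean of each normalization set, over the 39 arrays of sets with more than 1 array, ARO10 had the highest Pearson correlation with ARO9 of 5321 genes, 0.94, and again without the 5 minimal-medium arrays, 0.94 over 34. Over the 22 diploid arrays it ranked 10th, at 0.95, and over the 17 haploid arrays 2nd, at 0.91. ARO80 correlated with ARO9 at 0.58 over the 39 arrays and at 0.28 without minimal medium. These are descriptions: the arrays of a set share a normalization, and those of a group share a history. The arrays also include the pair by which the genes were picked and the other groups named by the rule. The correlation of ARO9 with ARO10 and its rank are therefore not free of the choice of genes.

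The genes most like the mean of ARO9 and ARO10 over the 39 arrays were AAD10, a putative aryl-alcohol dehydrogenase gene of a family with near-identical copies, at 0.90, ESBP6 at 0.89, VHR1 at 0.88, MDM34 at 0.88 and MDL2 at 0.88. Over the 22 diploid arrays they were ESBP6 at 0.94, DAL82 of allantoin breakdown at 0.94, LIP2 at 0.94, MDM36 at 0.93 and TRA1 at 0.93. Over the 17 haploid arrays ESBP6 reached 0.41 and ranked 741st, and the leading genes were YEF3 at 0.90, CYS4 at 0.87, CSC1 at 0.87, CWP1 at 0.86 and YDL124W at 0.84. Without the minimal-medium arrays, a selection made after the values were seen, ESBP6 stood at 0.53, and NVJ2 at 0.81, the ATP synthase subunit gene ATP1 at 0.79, PTK2 at 0.75, QCR10 of the respiratory chain at 0.74 and SNF1 at 0.73 led. The genes most like ARO80 over the 39 arrays were CRT10 at 0.84, THI6 at 0.81 and AZF1 at 0.81.

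The genes next to ARO9 and ARO10 on their chromosomes were not as low as the members in the H2 line on minimal medium. Beside ARO9, SPL2 stood at −0.99 and YHR138C at 1.49, against −4.27 for ARO9. In the trisomic descent SPL2 stood at −2.23, lower than ARO9 at −0.97, and YHR138C at −0.12. Beside ARO10, SDH6 stood at 0.33 and YRA1 at 0.57 in the H2 line, against −3.43, and at 0.07 and 0.41 in the trisomic descent, against −1.03. The neighbours of ARO80 had differences close to or below its own. HKR1 stood at −0.84 and SIP1 at −0.37 in the H2 line, against −0.42, and at −0.35 and −0.23 in the trisomic descent, against −0.17.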

How the data were processed

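The authors deposited log2 expression values made with RMA, per the submitters' processing notes. Neither its version nor its grouping of arrays is given in the sources used here. The range was 2.10 to 15.1. Arrays sharing at least 0.1% identical values were joined into 9 normalization sets (closest partner within a set at least 0.220%, other sets at most 0.0183%). Of 10928 probe sets, 7244 have 1 gene name, 1 has several and 3683 have none; 5498 were matched by gene number to 5449 genes of the R64 table. Probe sets of a gene were averaged. The 95th percentile of 1746 named probe sets whose gene number is not in that S. cerevisiae table (4.23 to 5.36 per array) was background, and genes above it on at least 2 arrays were tested, 5335 in the 23 diploid and 5352 in the 17 haploid arrays.

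Tests used limma 3.58.1 in R 4.3.3 (trended prior, Benjamini-Hochberg adjustment over all genes, threshold 0.05) with terms for group and set, in 1 fit per ploidy, with 9 and 10 residual degrees of freedom; lone arrays are assumed to vary like replicated groups. The fit was tested on simulated data. P-values measure the spread between arrays. Errors are SE for fitted changes and SD over arrays otherwise. The number of arrays limits the precision. The members, lists and set term were chosen with earlier results of these data known. Named genes were the members, listed genes past the threshold or with the largest changes of their list, and the 5 (for ARO80, 3) most like the members by Pearson correlation. Neighbouring genes, PDC1, and the listed genes named where they missed the threshold were named after their values were seen. Alternatives were no or a random set term, repeated quantile normalization, median centring, the probe set with the highest mean, no filter, a replicate block and leaving out arrays.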

Additional observations from a re-analysis of the deposited data

Results flagged for a closer look

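For both ARO9 and ARO10, gradual heat and the minimal-medium lines lay on opposite sides of the ancestor array of their own set. All 4 gradual-heat arrays lay above theirs and all arrays of both minimal-medium lines lay below theirs. Abrupt-heat replicate 2 stood at −0.099 for ARO9 and −0.27 for ARO10 against ancestor 1. For ARO9 gradual heat exceeded the H2 line on minimal medium by 4.56 and the trisomic descent by 1.26 in log2, as differences of changes. For ARO10 these were 3.88 and 1.48. The difference between lines was not tested, and the lines differ in medium and duration as well as in the way heat was applied. No array passed the limit in 15 outlier checks of the members, run only on groups of at least 4 arrays. Such a check can find little with 4 arrays. Abrupt-heat replicate 4 did not pass it, although it read lowest of its group for both enzyme genes.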

How the results depend on the processing

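The member test of H2 back at 30 °C kept its side of the threshold under every alternative run. Left-out arrays moved the changes between −0.10 and 0.08 for ARO9, 0.00124 and 0.39 for ARO10, and −0.01 and 0.06 for ARO80. The replicate block left them at −0.02, 0.20 and 0.03. Of the described changes, median centring gave 0.32 for ARO9 and −0.0314 for ARO80 in gradual heat and −1.07 for ARO10 in the trisomic descent, and repeated quantile normalization gave −0.0489 for ARO80 in gradual heat and −0.24 in the trisomic descent. ARO9 in the H2 line against the trisomic descent lay between −3.48 and −3.12 without 1 array. Without the set term the counts of other pathway genes called became 1 in abrupt heat against the ancestor, 0 against 30 °C, 17 in the H2 line and 0 in the trisomic descent on minimal medium, 19 at pH 8.6 after 750 generations and 40 in the spores. With a random set term they were 1 in abrupt heat (AGP1) and 1 in H2 back at 30 °C (BAT2). Leaving out arrays gave 0 to 1 in each of these. The replicate block gave 0 in abrupt heat against 30 °C. The shares of all genes called under the alternatives are not given here, so these counts are not results about the pathway. Same-numbered arrays correlated best with their own number in 3 of 10 cases (r from −0.27 to 0.41), so the numbers were not taken to pair arrays. Leaving out the ancestor array of a set was not run where it is the set's only link. With 1 ancestor array per set, its deviation enters every change.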
